A study of Mus musculus with 4 samples.

Results

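Trim33 binding was examined at the genes of the proteasome, the large protease that degrades ubiquitin-tagged proteins. Members were the protein-coding genes of the RefSeq table whose symbols begin with Psma to Psmg followed by a digit. This gave 51 genes of 21887. The cells were primary Th17 cells of C57BL/6 mice, obtained by culturing naive CD4+ T cells from spleen and lymph nodes on antibodies to CD3 and CD28, with IL-6, TGF-b and antibodies to IL-4 and IFN-g. There were 2 libraries from chromatin immunoprecipitation (ChIP) with an antibody to Trim33, a chromatin-bound ubiquitin ligase, and 2 input DNA libraries without antibody. Both groups shared strain, culture and cell type, and neither carried a genetic change or drug in the labels. The data were 1 list of 27050 peaks from the merged replicates. It holds 1 value per peak, so no value below has an error between cultures and no test over samples could be made. The depth of each library is unknown here. A peak list shows binding and not expression, so the cell type could not be checked from transcripts. The loci of Il17a and Il17f held 5 summits each, and those of the B cell and myeloid markers Cd79b, Ms4a1, Csf1r and Cebpa held none.

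The proteasome has a hollow core particle and a regulatory particle that caps it. The core stacks outer rings of alpha subunits, which gate the channel, on inner rings of beta subunits, some of which cut proteins. The regulatory particle has a base, with a ring of ATPases that unfold substrates, and a lid, which removes ubiquitin. Lymphocytes can also build an immunoproteasome, in which Psmb8, Psmb9 and Psmb10 replace the constitutive catalytic subunits and favour peptides for antigen presentation. Transcription of the subunit genes is known to be co-regulated, with the factor Nfe2l1 raising it through antioxidant response elements when proteasomes are inhibited.

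The promoters below were chosen to show the range of binding. Psmd12 had the highest summit at its own start of all members, Psmc2, Psmc6 and Psmg1 had others among the highest, Psmb9 had a weak summit at its start, and Psmc5 had none in its locus. Each run is the RefSeq promoter window of GRCm38.p6 (mm10) from 250 bases before to 50 after the transcription start, 5′ to 3′ on the strand of the gene. Capitals mark 3 motifs on either strand, namely the ETS core CCGGAA, the antioxidant response element core TGACNNNGC and the NF-Y box CCAAT.

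Psmd12: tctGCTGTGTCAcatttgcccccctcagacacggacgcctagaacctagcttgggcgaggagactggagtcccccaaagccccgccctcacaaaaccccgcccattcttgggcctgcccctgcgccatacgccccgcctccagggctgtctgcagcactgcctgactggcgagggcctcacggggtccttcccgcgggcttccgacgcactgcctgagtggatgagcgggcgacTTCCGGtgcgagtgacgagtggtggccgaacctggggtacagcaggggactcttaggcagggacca
Psmc2: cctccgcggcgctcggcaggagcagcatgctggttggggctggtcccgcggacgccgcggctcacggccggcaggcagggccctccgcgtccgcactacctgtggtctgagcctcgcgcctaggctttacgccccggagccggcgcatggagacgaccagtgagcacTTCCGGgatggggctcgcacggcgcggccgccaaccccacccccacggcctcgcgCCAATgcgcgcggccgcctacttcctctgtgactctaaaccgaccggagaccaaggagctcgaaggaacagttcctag
Psmc6: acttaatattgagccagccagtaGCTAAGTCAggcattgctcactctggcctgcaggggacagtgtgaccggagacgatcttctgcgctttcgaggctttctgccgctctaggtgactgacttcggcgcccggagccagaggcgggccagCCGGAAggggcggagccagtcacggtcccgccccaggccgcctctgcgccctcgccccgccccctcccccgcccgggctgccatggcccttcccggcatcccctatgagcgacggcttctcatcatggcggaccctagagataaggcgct
Psmg1: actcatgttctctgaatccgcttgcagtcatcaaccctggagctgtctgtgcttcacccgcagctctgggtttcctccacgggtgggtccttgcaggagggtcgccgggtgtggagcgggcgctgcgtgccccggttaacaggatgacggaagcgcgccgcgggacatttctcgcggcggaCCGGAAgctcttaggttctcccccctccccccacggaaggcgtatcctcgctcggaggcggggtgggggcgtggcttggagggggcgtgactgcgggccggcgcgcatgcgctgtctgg
Psmb9: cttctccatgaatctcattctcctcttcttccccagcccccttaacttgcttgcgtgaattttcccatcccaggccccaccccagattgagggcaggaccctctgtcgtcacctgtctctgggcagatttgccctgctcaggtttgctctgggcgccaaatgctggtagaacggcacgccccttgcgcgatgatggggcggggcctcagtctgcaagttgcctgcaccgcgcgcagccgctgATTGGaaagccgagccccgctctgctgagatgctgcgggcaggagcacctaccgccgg
Psmc5: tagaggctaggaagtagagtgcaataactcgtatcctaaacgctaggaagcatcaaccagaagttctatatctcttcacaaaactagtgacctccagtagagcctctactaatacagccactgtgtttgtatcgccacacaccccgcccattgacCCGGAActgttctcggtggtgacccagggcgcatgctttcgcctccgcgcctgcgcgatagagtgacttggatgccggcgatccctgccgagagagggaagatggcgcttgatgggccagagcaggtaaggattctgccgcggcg

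These windows lie at chr11:107479278-107479577 (Psmd12, plus strand), chr5:21785025-21785324 (Psmc2, plus), chr14:45329574-45329873 (Psmc6, plus), chr16:95990911-95991210 (Psmg1, minus), chr17:34187281-34187580 (Psmb9, minus) and chr11:106255935-106256234 (Psmc5, plus). Psmd12, Psmc2, Psmc6, Psmg1 and Psmc5 each hold 1 ETS core. Counted from the start base as 0, the core lies at −16 to −11 in Psmd12, which had its start summit at −96. It lies at −95 to −90 in Psmc5, which had no summit in its locus. Psmb9 holds an NF-Y box and no ETS core.

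A summit, the position of highest signal in a peak, lay within 1000 bp of either end of the gene in 32 of the 51 proteasome genes (62.7%, exact binomial interval 48.1% to 75.9%, which covers counting error only and takes genes as independent). The share of all protein-coding genes was 33.4%. It was 38.1% when symbols with Gm, Rik, Olfr or Vmn, many of them predicted or receptor genes, were left out. In the gene body with 10 kb on either side, called the locus here, 42 members held a summit (82.4%, interval 69.1% to 91.6%) against 53.9% of all genes and 60.8% without those symbols. The 42 loci held 71 summits, of which 34 lay at a member's own ends. Proteasome genes were shorter than others, with a median of 11567 bp against 17169 bp, and the part of length in these shares was not tested.

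**Figure D1:**
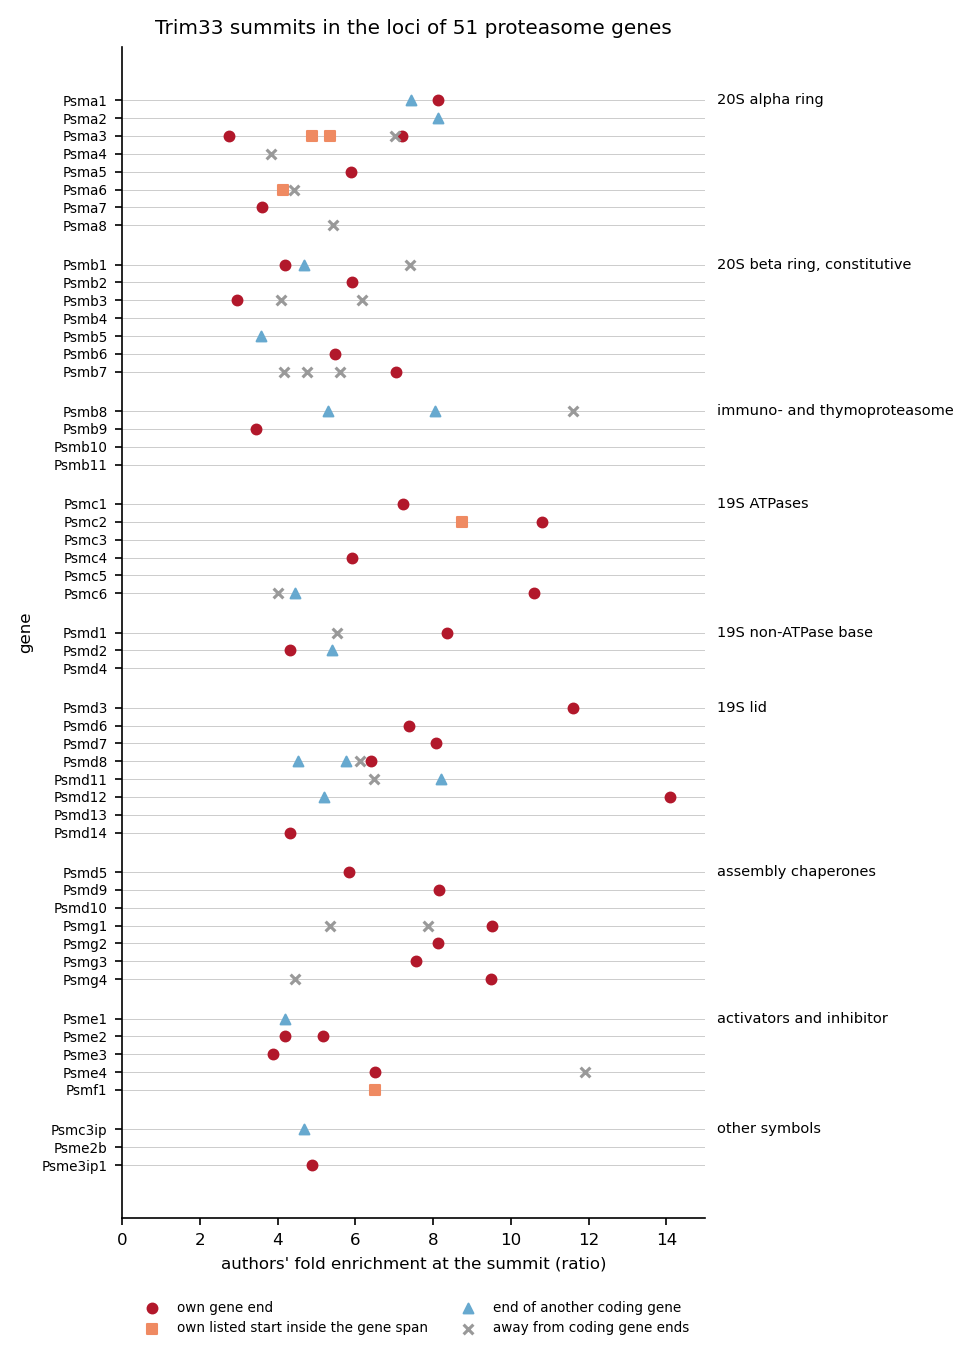
The authors' fold enrichment (x axis, ratio) of each summit in the loci of the 51 genes (y axis, by subcomplex), with symbols for the place of the summit. Summits at the gene's own end reach 14.1-fold at Psmd12, and 9 genes have no summit.

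The gene-end peaks of members had a median of 6.45-fold enrichment, the signal at the summit over the caller's background, with quartiles of 4.46 and 8.13 over 34 peaks. For all 7497 gene-end peaks the median was 5.79, with quartiles of 4.69 and 7.51. At 10-fold or more were 4 of the 34 (11.8%), against 8.88% of all gene-end peaks. The median −log10 q at the summit was 14.4 for members and 10.6 for all gene-end peaks, and the median widths were 250 and 258 bp.

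In the lid of the regulatory particle 6 of 8 genes had a gene-end summit (75%, interval 34.9% to 96.8%), against 33.4% of all genes. Among the lid summits were the 2 highest gene-end summits of all members. The intervals of the subcomplexes here and below are wide and overlap, and differences between subcomplexes were not tested. Psmd12, a scaffold subunit, had 14.1-fold enrichment at chr11:107479321-107479602, with the summit 96 bp upstream of the start and rank 758 of the 27050 peaks by fold. Psmd3, another scaffold subunit, had 11.6-fold at chr11:98682320-98682683, 32 bp outside its lower end. Both values lie above the upper quartile of all gene-end peaks.

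Psmd7, the partner of the deubiquitinase, reached 8.07-fold, 15 bp outside its upper end. Psmd6 had 7.38-fold at 47 bp upstream of its start, and Psmd8 had 6.39-fold at 102 bp downstream of it. The deubiquitinase gene Psmd14 had the lowest value of the lid, 4.33-fold at 122 bp downstream of its start. Psmd11 had no gene-end summit. The locus of Psmd11 held a peak of 6.47-fold at 8276 bp upstream and 1 of 8.20-fold that lay 166 bp from an end of the neighbour Cdk5r1. Psmd13 had no summit in its locus.

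Among the 6 ATPase genes of the base, 4 had a gene-end summit (66.7%, interval 22.3% to 95.7%), against 33.4% of all genes. Psmc2 had 10.8-fold enrichment at chr5:21785124-21785376, 22 bp upstream of its start, and a second summit of 8.73-fold, 42 bp upstream of another listed start inside the gene. Psmc6 had 10.6-fold at chr14:45329502-45329858, 162 bp upstream of its start. Psmc1 and Psmc4 had 7.23-fold and 5.91-fold, at 103 and 157 bp upstream of their starts. Psmc3 and Psmc5 had no summit in their loci, so peak calls in 1 hexameric ring ran from 10.8-fold to no listed peak. The 10.8-fold summit of Psmc2 was nearer to an end of Dnajc2, at 11 bp. The nearest summits to Psmc3 and Psmc5 were just outside the locus, at 10923 bp (13.4-fold) and 10131 bp (17.5-fold).

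The other base subunits differed as well. Psmd1, a scaffold of the base, had 8.36-fold at 270 bp upstream of its start. Psmd2, its partner, had 4.33-fold at 34 bp upstream of a listed start and 496 bp inside the annotated gene. Psmd4, which binds ubiquitin chains, had no summit in its locus.

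The assembly chaperones help to build the particles and then leave. They had gene-end summits in 6 of 7 genes (85.7%, interval 42.1% to 99.6%), against 33.4% of all genes. Psmg1 had 9.52-fold enrichment at 46 bp upstream of its start, with further summits of 7.86-fold and 5.34-fold at 4146 and 8576 bp upstream. Psmg2, which pairs with Psmg1 in alpha ring assembly, had 8.13-fold at 92 bp outside its lower end, also within 1000 bp of an end of Cep76. Psmg4 had 9.48-fold and Psmg3 had 7.55-fold, at 69 bp downstream and 40 bp upstream of their starts. All 4 of these summits exceeded the median of 5.79-fold of gene-end peaks.

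Of the base chaperones, Psmd9 had 8.15-fold at 42 bp downstream of its start and Psmd5 had 5.84-fold at 147 bp upstream. Psmd10 had no summit in its locus. It lies on chromosome X, was the only one of the 51 genes with no summit within 50 kb on either side, and its nearest summit was 405124 bp away.

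**Figure D2:**
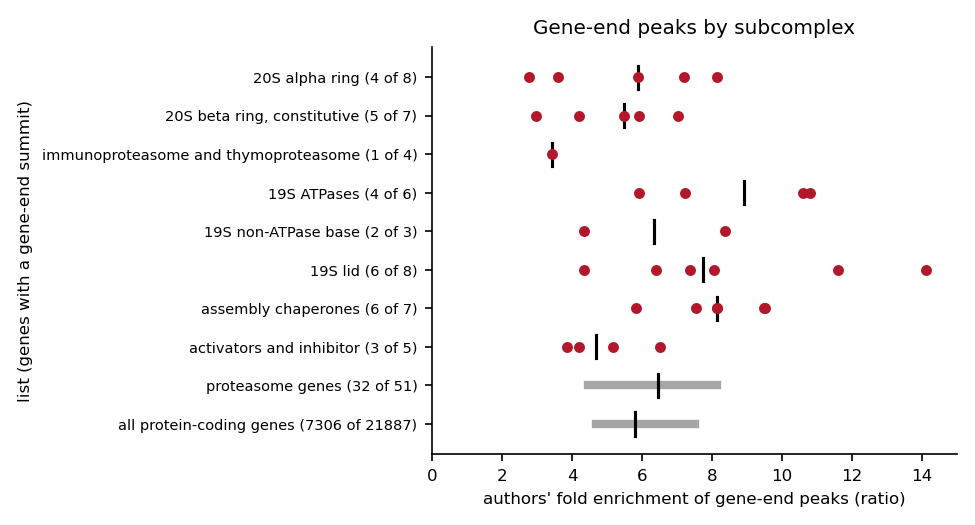
The authors' fold enrichment (x axis, ratio) of gene-end peaks in each subcomplex (y axis, with the count of genes that have one). Points are peaks, upright lines are medians and grey bars are quartiles. Medians are 8.92 for ATPases, 8.14 for chaperones, 7.73 for the lid and 6.34 for the non-ATPase base. They are 5.88 and 5.48 for the alpha and beta rings, 4.68 for activators and inhibitor and 3.44 for inducible and tissue-specific catalytic genes. For all genes the median is 5.79. Each subcomplex has only 1 to 6 peaks.

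The core particle had gene-end medians of 5.88-fold for the alpha ring and 5.48-fold for the constitutive beta ring. In the alpha ring 4 of 8 genes had a gene-end summit (50%, interval 15.7% to 84.3%), against 33.4% of all genes. All 8 had a summit in the locus (interval 63.1% to 100%), against 53.9% of all genes. Psma1 had 8.13-fold enrichment at 12 bp downstream of its start, Psma5 had 5.88-fold at 35 bp upstream and Psma7 had 3.60-fold at 32 bp upstream. The Psma7 summit was nearer to an end of Ss18l1, at 13 bp. Psma3 had 5 summits. Those at its ends had 7.21-fold and 2.76-fold, the latter at the 3′ end, while those at its listed start, inside the annotated span, had 5.34-fold and 4.89-fold at 55 and 272 bp downstream.

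Psma6 had no gene-end summit, but 1 of 4.13-fold lay 52 bp upstream of a listed start inside the gene. Psma2 had its only summit, of 8.13-fold, at 52 bp from an end of AW209491 and 4520 bp above its own upper end. Psma4 had 1 of 3.84-fold beyond its 3′ end. Psma8, the alpha subunit of germ cells, had 1 of 5.42-fold inside the gene, 18171 bp from an end. The peaks of Psma1, Psma2 and Psmg2 carry the same fold and the same −log10 q of 21.8, so their order cannot be resolved.

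Among the 7 constitutive beta genes 5 had a gene-end summit (71.4%, interval 29% to 96.3%), against 33.4% of all genes. Psmb7, which encodes the trypsin-like subunit, had 7.04-fold at 43 bp outside its upper end and 3 lower summits inside the gene, from 4.16 to 5.61-fold. Psmb6, the caspase-like subunit, had 5.48-fold at 46 bp upstream of its start. Psmb5, the chymotrypsin-like subunit and main target of proteasome inhibitors, had no summit at its ends, and its only locus summit (3.58-fold) was 122 bp from an end of 4931414P19Rik. The 3 catalytic genes thus ran from 7.04-fold to no gene-end peak.

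The structural subunit genes Psmb2, Psmb1 and Psmb3 had gene-end summits of 5.92-fold, 4.20-fold and 2.96-fold. Psmb1 also had a summit of 7.40-fold inside the gene and 1 of 4.68-fold at 40 bp from an end of Tbp, and Psmb3 had others of 4.08-fold and 6.16-fold beyond its 3′ end. Psmb4 had none in its locus.

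Of the 4 inducible and tissue-specific catalytic genes 1 had a gene-end summit (25%, interval 0.631% to 80.6%), a share near the 33.4% of all genes, and 2 had a locus summit (50%) against 53.9%. Psmb9 had 3.44-fold at chr17:34187260-34187449, 28 bp downstream of its start, with a −log10 q of 3.34 and rank 26147 of 27050. This summit also lay 254 bp upstream of the start of Tap1, which encodes a peptide transporter for antigen presentation and is transcribed away from Psmb9. Psmb8 had no summit at its ends. The 3 summits in the Psmb8 locus had 5.30, 8.06 and 11.6-fold and lay 2103, 3034 and 9332 bp above its upper end. The first and second were 922 and 9 bp from an end of Tap2, the partner of Tap1. The third, the highest, lay inside Tap2, 5535 bp from its nearest end. Psmb10 and Psmb11, the latter specific to thymic epithelium, had no summit in their loci.

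Of the 5 genes of activators and the inhibitor 3 had a gene-end summit (60%, interval 14.7% to 94.7%), against 33.4% of all genes. Psme4, a nuclear activator, had 6.51-fold at 44 bp upstream of its start and 11.9-fold at chr11:30786591-30786835, inside the gene and 14936 bp downstream of the start. The latter was the highest of the 19 locus summits farther than 1000 bp from any coding gene end and from the member's own listed starts. Psme3 had 3.87-fold at 59 bp upstream of its start. Psme2, an interferon-inducible activator, had 4.20-fold at 32 bp downstream of its start and 5.16-fold at 529 bp upstream, and both were also within 1000 bp of an end of Rnf31. Psme1, the partner of Psme2, had only the former of these in its locus, 9542 bp above its upper end. The inhibitor gene Psmf1 had 6.51-fold at 23 bp upstream of its listed start, which lies inside the annotated span, and no gene-end summit.

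The symbol rule also took 3 genes that belong to none of the groups above. Like the assembly chaperones, they are no subunits of the common proteasome. Psme3ip1, which binds the Psme3 protein, had 4.88-fold at 31 bp downstream of a listed start, and this summit was nearer to an end of LOC115486880. Psmc3ip, a recombination factor, had 1 summit at 266 bp from an end of Coasy. Psme2b, a copy of Psme2, had none, which is uncertain because the copies share sequence.

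Strand and start were available for 43 of the 51 genes. Psma8, Psmb1, Psmb2, Psmb7, Psmc3, Psmd3, Psmd7 and Psmg2 had no entry. A summit lay within 1000 bp of a listed start in 28 of the 43 (65.1%), against 34.8% of the 17492 genes with an entry and 40.3% of those left without the symbols named above. All 26 members with an entry and a gene-end summit also had a summit at a listed start, against 92.9% of all such genes. Psma6 and Psmf1 were added by the listed start, which brought the members with a summit at either to 34. A summit within 1000 bp of the 3′ end was found in 1 member, Psma3, against 2.96% of all genes.

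The summits sat close to the start. The nearest of each member lay at a median of 46.5 bp from it, with 20 of 28 (71.4%) within 100 bp, while for all 6087 genes with a start summit the median was 74 bp and 61.1% were within 100 bp. Of the 28 nearest summits 19 were upstream and 9 downstream, from 270 bp upstream at Psmd1 to 122 bp downstream at Psmd14. The split by side was not counted for all genes, so it is not shown to be particular to members.

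**Figure D3:**
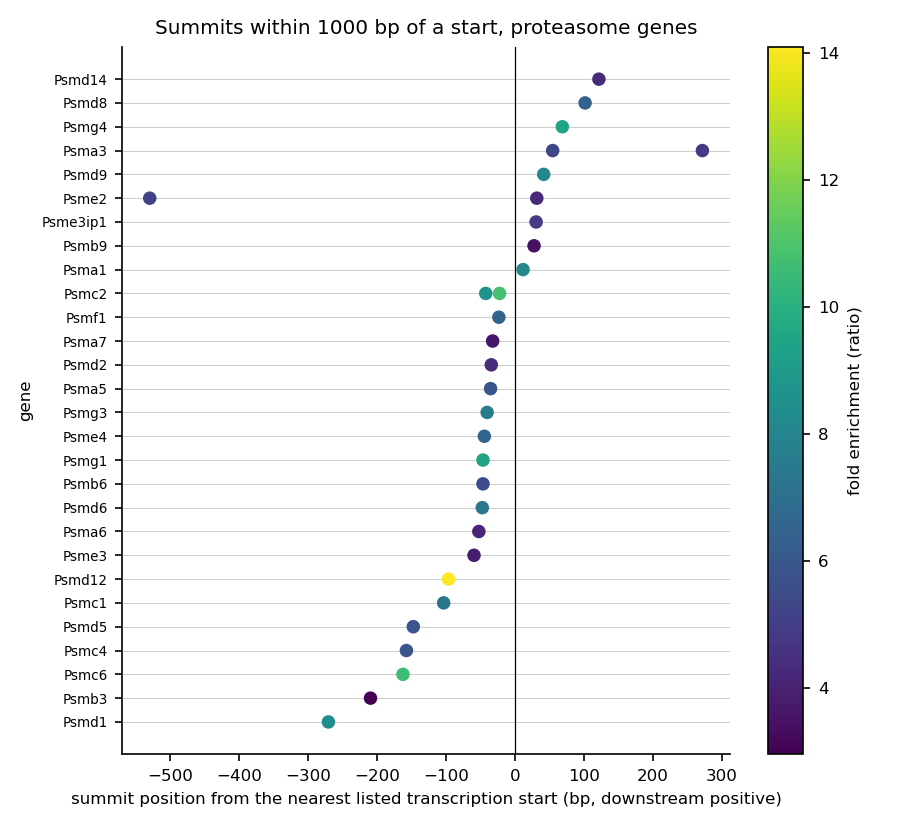
Position of each summit within 1000 bp of a listed start (x axis, bp, downstream positive) in the 28 genes that have one (y axis), coloured by fold enrichment. Most points lie within 100 bp of the start, more of them upstream, a split that was not counted for all genes.

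A gene-end summit can belong to a neighbour. In 8 of the 32 members (25%) it also lay within 1000 bp of an end of another protein-coding gene, against 28% of all genes with a gene-end summit. These members were Psma7, Psmb3, Psmb9, Psmc2, Psmd8, Psme2, Psme3ip1 and Psmg2. For Psma7, Psmc2 and Psme3ip1 the end of the neighbour was the nearer, at 11 bp for Psmc2 and its neighbour Dnajc2, which shares the 10.8-fold peak. Counting a summit only for the gene with the nearest end left 29 members (56.9%), against 29.6% of all genes.

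Besides the 34 summits at own ends, 5 lay at own listed starts inside the gene span, 13 at ends of other coding genes and 19 away from both. The 19 belonged to 15 members and had 3.84 to 11.9-fold enrichment, with a median of 5.54. Of the 10 members with a locus summit and none at their ends, Psma2, Psmb5, Psmc3ip and Psme1 had summits at ends of other coding genes alone. In the gene body without flanks 17 members held a summit (33.3%), about the share of all genes (33%). With 50 kb on either side 50 members did, against 71.5%.

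Other windows at gene ends gave similar counts. With 500 bp 31 members had a summit (60.8%) against 29.8% of all genes, and with 2500 bp 33 did (64.7%) against 38.5%. At listed starts the count was 28 with 500 bp and with 2500 bp, against 32.9% and 37.2% of all genes. The farthest gene-end summit was at 660 bp (Psma3), and the next one out was the second summit of Psmc2 at 1430 bp. At the edge of the locus, the farthest summit inside was at 9842 bp (Psmc3ip) and the nearest outside at 10103 bp (Psme1).

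Weaker peaks made up part of the counts. Among peaks at or above the median fold of the list, 18 members had a gene-end summit (35.3%) against 17.2% of all genes, and with those at or above the median −log10 q 20 did (39.2%) against 17.6%. For loci the counts were 24 (47.1%) and 26 (51%), against 35.8% of all genes in each case.

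**Figure D4:**
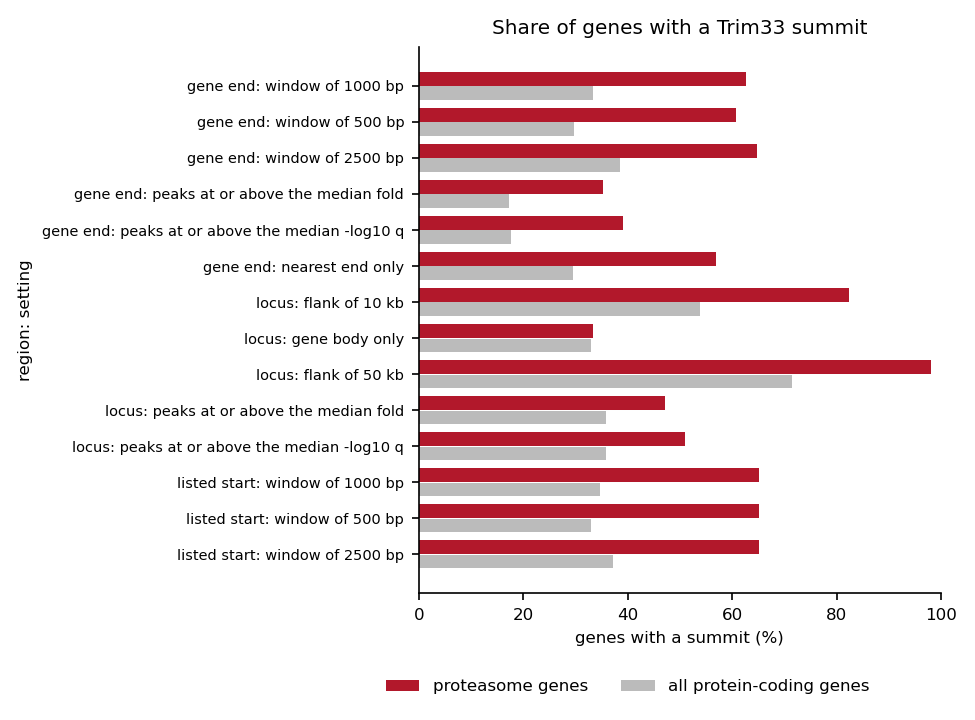
Percentage of genes with a summit (x axis) for the proteasome genes (red) and all protein-coding genes (grey), by region and setting (y axis). The red bars are longer in each pair, except for gene bodies alone, where they are 33.3% and 33%.

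The same counts were made for other multi-subunit machines, as values without a test of the difference. Of 81 genes of cytosolic ribosomal proteins 52 (64.2%, interval 52.8% to 74.6%) had a gene-end summit, and of 78 genes of mitochondrial ribosomal proteins 57 (73.1%, interval 61.8% to 82.5%). The intervals overlap that of the proteasome genes. The median fold of their gene-end peaks was 5.48 and 6.35, beside 6.45.

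Genes that act with the proteasome but lie outside the symbol rule were taken from a list of 29, of which 28 matched. The list was drawn up with earlier results of these data known. The 5 genes with the highest fold and those without a summit were to be named, and the others named here were chosen for their role after their values were seen. A gene-end summit was found in 23 of the 28 (82.1%), against 33.4% of all genes and 38.1% without the Gm, Rik, Olfr and Vmn symbols. The median of their 29 gene-end peaks was 7.82-fold, against 5.79 for all gene-end peaks. A locus summit was found in 26 (92.9%), against 53.9% of all genes and 60.8% without those symbols. The subunit genes Adrm1, a ubiquitin receptor, and Sem1, of the lid, had 10.5-fold and 11.0-fold, and Pomp, the maturation factor of the core, had 10.5-fold at 34 bp upstream of its start. Nfe2l1 had 4.73-fold at 538 bp upstream of its start. Ddi2 and Ngly1, which process the Nfe2l1 protein, had 8.71-fold and 8.57-fold at 68 bp upstream and 1 bp downstream of theirs.

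The highest values of this list were at Nfe2l2 (15.2-fold, inside the gene), at the shuttle factor genes Ubqln4 (14.2-fold), Rad23b (13.5-fold) and Ubqln1 (12.2-fold), and at Akirin2 (11.2-fold), a factor for nuclear import of proteasomes. Ufd1 and Uba1 had no summit in their loci.

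Motifs were counted in the promoter windows of the 43 members, on both strands, beside all 17492 genes with a window. The ETS core CCGGAA was found in 22 members (51.2%), against 20.9% of all genes and 36.4% of the genes with a start summit. Within the members it was found in 14 of the 28 with a start summit (50%) and in 8 of the 15 without (53.3%). Among all genes without a start summit 12.6% held it. The ETS cores of Psmd6 and Psme4 lay near their summits, examples chosen after their positions were seen. The cores lay at −45 to −40 for Psmd6 and at −53 to −48 and −31 to −26 for Psme4. In other members the core lay farther from the summit. In Psma5 the core lay at −154 to −149 and the summit at −35, and in Psmc6 at −100 to −95 and −162. The distance from core to summit was not tested over all members.

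The antioxidant response element core TGACNNNGC was found in 6 members (14%), namely Psmb5, Psmb6, Psmc6, Psmd9, Psmd12 and Psme4, against 14.8% of all genes. The looser form TGANNNNGC, of which every match of the former is also a match, was found in 25 (58.1%) against 45.5%. The SMAD element CAGAC, bound by the partners of Trim33 in TGF-beta signalling, was found in 18 (41.9%) against 52.5%, and its palindrome GTCTAGAC in 1, Psmb5, against 0.263%. The NF-Y box CCAAT was in 16 (37.2%) against 42.3%, and the interferon-stimulated element GAAANNGAA in 7 (16.3%) against 9.43%. These 7 were Psmb3, Psmb4, Psmc2, Psmd4, Psmd9, Psme1 and Psmg4, and not Psmb8, Psmb9, Psmb10 or Psme2.

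The other motifs were rare. NRF1 (GCGCATGCG), AP-1 (TGANTCA, which the loose antioxidant form can overlap) and YY1 (AAGATGGCG) were each in 2 members (4.65%), against 2.61%, 8.12% and 2.14%. The cAMP response element TGACGTCA was in none of the 43, against 2.54%. The median GC content of the windows was 57.3% for members and 56.3% for all genes, and the median count of CG pairs was 19 and 13. The ETS core holds a CG pair, and the part of base composition in its share was not tested. Members with a start summit had 59% GC and 18.5 CG pairs, and members without one had 55% and 19. For all genes these medians were 62.7% and 24 with a start summit, and 52% and 6 without.

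**Figure D5:**
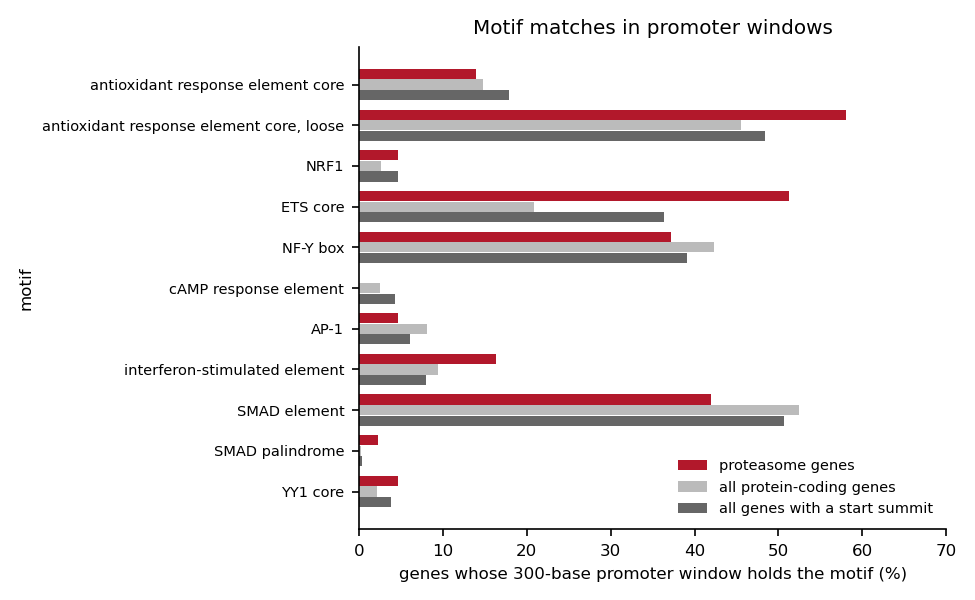
Percentage of genes whose promoter window holds each motif (x axis) for the 43 proteasome genes (red), all protein-coding genes (light grey) and all genes with a start summit (dark grey). The ETS core shows 51.2%, 20.9% and 36.4%.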

How the data were processed

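Peaks were called on merged replicates of the Trim33 ChIP libraries, per the deposited peak names. The submitters' processing notes name MACS2 2.1.1.20160309, Bowtie 1.2.1.1, Trim Galore 0.3.7 and mm10. The peak threshold, the control and other settings were not given in the sources used here. The deposited list gives a fold enrichment (ratio), a −log10 q-value for its summit, and a score by the authors that repeats the q-value as a whole number and was not used. The summit offset gave positions, counted from 1. These values rank peaks within the list only.

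Gene spans, strands, starts and promoter windows came from RefSeq tables of GRCm38.p6. Exons were not used, so exonic and intronic summits were not separated. Members matched a start by gene ID. A gene counted as holding a motif if any of its windows did; base composition used the first window of each. Shares carry exact Clopper-Pearson intervals at 95%, for counting error only. Counting was tested on simulated summits, where 50 of 50 planted at gene ends and 150 of 150 planted in loci were recovered among 21887 genes. The planted genes lay far from other coding genes, and gene-end summits were planted at or below the lower end only. Summits shared by neighbours and the count at listed starts were not part of that test. Scripts used Python 3.11.15, pandas 2.3.3, numpy 2.4.6 and scipy 1.17.1.

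The members, gene lists and motifs were chosen with earlier results of these data known, and the loose form of the antioxidant element was added after seeing the data. Values are given for members with a gene-end summit, those with the highest fold in the locus, the inducible catalytic genes and those with no locus summit.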

Additional observations from a re-analysis of the deposited data

How the results depend on the processing

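Of 51 members, the count with a gene-end summit was 31 with 500 bp, 33 with 2500 bp and 29 by nearest end, against 32. It was 18 with peaks at or above the median fold and 20 with those at or above the median −log10 q. The count by locus was 50 with 50 kb, against 42. It was 17 in gene bodies alone, and 24 and 26 with the stricter peaks by fold and by −log10 q. These stricter sets hold fewer peaks and gene bodies less sequence by construction. The count at listed starts was 28 with 500, 1000 and 2500 bp. The median fold of gene-end peaks was 6.77 over the highest peak of each member, against 6.45. No paired analysis was possible because both ChIP replicates were merged before calling, and for the same reason no replicate could be left out. Depth per library is unknown, so a gene without a peak is not shown to be unbound.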

Other observations

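The RefSeq table also names 6 proteasome pseudogenes with symbols of this family ending in -ps. At their ends, within 1000 bp, 0 of the 6 had a summit, against 1.48% of all 9944 pseudogenes. A locus summit was found for 2 of the 6, against 12.8% of all pseudogenes. Counts out of 6 are small, and the differences were not tested. Absence of a summit is uncertain here, as at Psme2b, because copies share sequence. The summit in the locus of Psmb6-ps had 5.42-fold enrichment and lay 110 bp from an end of Hdac6. The summit in the locus of Psmb7-ps2 had 5.34-fold and lay 9177 bp from the nearest end of a coding gene, that of Was.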
